A study of Mus musculus with 18 samples.

Results

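DEAD and DEAH box RNA helicases were described in RNA from mouse Neuro2A (N2A) cells, a neuroblastoma line. Members were the loci whose gene symbol has the form Ddx or Dhx followed by digits and at most 1 letter, leaving out the 2 such symbols on chromosomes X and Y. This gave 51 of 52179 loci with a symbol, 35 named Ddx and 16 named Dhx. The samples formed 6 groups of 3: nuclear and whole cell lysate, each from untransfected N2A cells (control), after transfection of a scrambled mimic carrying biotin (Scr), or after transfection of *miR-92b* carrying biotin, both mimics at 25 nM. In the pulldown, RNA held by a biotinylated mimic was collected on streptavidin beads, and libraries were made from RNA selected with oligo-dT. All groups are cultures of the same line. Whether the control lysates went over the beads, and whether the samples of a group came from separate cultures, is not stated for these libraries. The p-values therefore measure the spread between these samples, which may be technical.

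RNA helicases of these families use ATP to pull short RNA duplexes apart or to strip proteins from RNA. They share a core of motifs, and the families are named after the letters of motif II, a box in which an aspartate and a glutamate take part in ATP hydrolysis. DEAD box proteins mostly act locally on short duplexes and work in splicing, ribosome assembly, mRNA export, translation and decay, while many DEAH box proteins move along RNA and drive the remodelling steps of the spliceosome. Neurons and neuroblastoma cells use Ddx6 and its partners in granules that hold repressed mRNA.

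The coding stretch of the box shows why the members are read as 1 group and where they differ. The 4 codons of motif II are in capitals within 30 bases of the coding sequence (GENCODE, GRCm38), shown for members that the results below turn on.
Ddx5: cttgtccttGATGAAGCTGATaggatgctt
Ddx17: cttgtgttgGATGAGGCTGACcggatgctt
Ddx6: atagtgctaGATGAGGCAGATaaattgttg
Ddx21: gttgtcctgGATGAAGTCGACcagatgttg
Ddx39b: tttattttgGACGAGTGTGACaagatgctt
Dhx15: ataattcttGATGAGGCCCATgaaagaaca
Dhx40: attattttgGATGAAGCCCATgaaagaact
Dhx57: atcattgttGATGAAGTTCATgagaggaca
Ddx19a: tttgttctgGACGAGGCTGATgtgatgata
Ddx19b: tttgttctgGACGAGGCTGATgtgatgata
The capitals lie at chr11:106785193-106785204 (minus strand) in Ddx5, chr15:79538875-79538886 (minus) in Ddx17, chr10:62591881-62591892 (minus) in Ddx21 and chr17:35247090-35247101 (plus) in Ddx39b. They lie at chr5:52171496-52171507 (minus) in Dhx15, chr11:86800987-86800998 (minus) in Dhx40, chr17:80267532-80267543 (minus) in Dhx57, chr8:110979086-110979097 (minus) in Ddx19a and chr8:111011335-111011346 (minus) in Ddx19b. In Ddx6 an intron splits the box, which spans chr9:44626477-44627643 (plus). In Ddx21, Ddx39b and Dhx57 the codon before the last differs from the alanine codon of the name. The stretch of Ddx19a is identical to that of its neighbour and paralog Ddx19b, and how the counting divided reads between the 2 genes is not stated, so the values of both are uncertain.

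Over all 51 members, the codons spelled DEAD in 26 and DEAH in 9. A further 6 members kept the final aspartate codon and 8 the final histidine codon with another codon before it, and no box was located in Ddx60 and Dhx32. Ddx11, a DNA helicase that carries a Ddx name, has the codons of DEAH.

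A sample had between 3752991 and 22920038 reads on loci with a symbol. Members held between 0.571% and 0.629% of these reads in the 9 nuclear samples and between 0.449% and 0.585% in the 9 whole cell samples, where *miR-92b* sample 3 was the lowest. Of 6 listed nuclear-retained RNAs, 4 were tested, and 3 of these were higher in nuclear samples over the 3 treatments. Among them were Malat1 (log2 difference of nuclear and whole cell normalised counts 1.08, limma adjusted p = 1.82e-05) and Neat1 (1.06, adjusted p = 4.5e-06), while Meg3 did not pass (1.65, SE 0.86, adjusted p = 0.145). Within 1 treatment, 3 of the 4 were called in control, 3 in *miR-92b* and 0 in Scr samples, where their median was 0.745. Lower in nuclear samples were 8 of 9 listed mRNAs translated in the cytoplasm, with Hspa5 at -0.16 (adjusted p = 0.251). Among markers of sympathetic neuroblastoma, 10 had a mean normalised count of at least 10, with Prph the highest at 3496, and Tubb3 was not analysed here. None of 6 fibroblast, 6 macrophage and 4 epithelial markers reached that mean, with Csf1r the highest at 9.92.

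Levels were compared between genes as FPKM, which is relative to transcript length. The mean over 18 samples was at least 10 FPKM for 28 members, from 1 to 10 for 19 and under 1 for 4. Ddx5, a cofactor of splicing, transcription and microRNA processing, had the highest level, 186 ± 31.4 FPKM (SD, n = 18). Its locus also carries the symbols Gm25994 and Mir3064, and that of Ddx39b carries Gm22589 and Mir8094, so their values belong to the joined loci. After Ddx5 came Ddx39b, a helicase of splicing and mRNA export, at 108 ± 12.1, then Dhx9, which unwinds long duplexes and RNA-DNA hybrids, at 92.1 ± 17.4. The ranges of Ddx39b (89.6 to 134) and Dhx9 (40.6 to 113) overlapped, and the lowest Ddx5 sample, at 150, lay above both. Ddx17, the close paralog of Ddx5, reached 72.3 ± 6.34 and Dhx15, which takes spent spliceosomes apart, 64.0 ± 11.2, with overlapping ranges. The steps between neighbours further down the order were smaller than the SD of either neighbour for most members, so their order is not resolved.

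**Figure D1:**
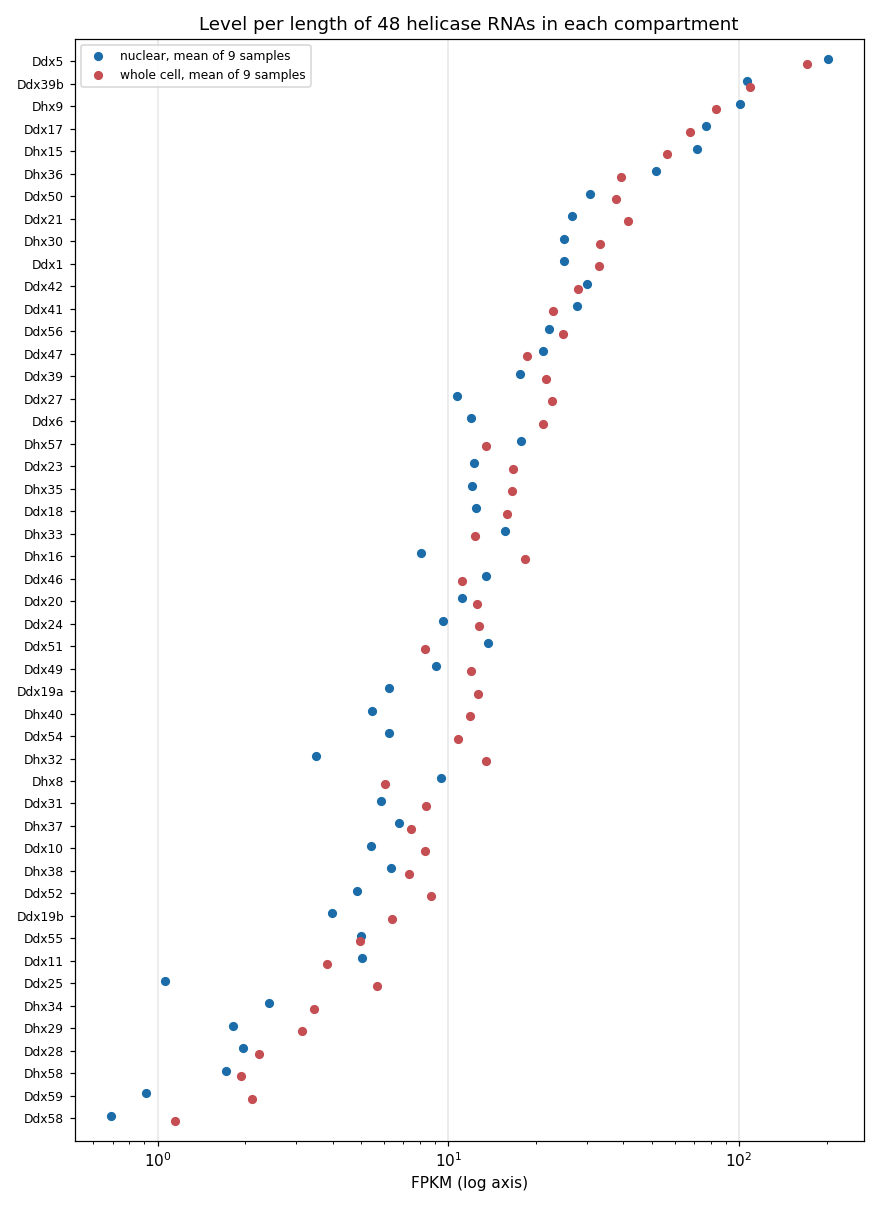
Level of the 48 tested helicase RNAs as FPKM (log axis), each dot the mean of 9 nuclear (blue) or 9 whole cell (red) samples, ordered by the mean over both. Ddx5 is highest, at 202 FPKM in nuclear and 171 in whole cell samples, and Ddx58 lowest, at 0.690 and 1.15.

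Testing was limited to the 48 members with a mean normalised count of 10 or more, which left out 3. Ddx43 had 0 reads in all 18 samples, where 3 reads, the limit that a count of 0 allows, correspond to a normalised count of 0.786 to 4.75. Ddx4, the germ cell helicase also called Vasa, had 9 reads in 1 whole cell control sample and 0 in the other 17. Ddx60, an antiviral helicase, had 37 reads in nuclear Scr sample 3 and at most 5 in any other. Among the 48, Ddx58, Dhx58, Ddx59, Ddx28, Dhx34, Dhx40 and Dhx29 had fewer than 10 reads in at least 1 sample, and 29 members had over 100 reads in every sample.

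The first question was which helicase RNAs differ between nuclear and whole cell samples. Over the 3 treatments, limma called 18 of 48 members at an adjusted p below 0.05, or 37.5%, where 31.0% of all 15579 tested loci were called. Of the members, 7 were higher in nuclear samples (background 15.3% of loci) and 11 lower (background 15.8%). The share of helicases called is thus near that of loci at large. In bulk lysates, fewer cells that hold an RNA and less of it per cell cannot be told apart. Without whole cell *miR-92b* sample 3, which was the lowest of the 18 samples for Ddx17, Ddx42, Dhx15, Ddx41, Dhx33 and Dhx57, 15 members were called. The median log2 difference of the members was -0.11, against 0.14 over all loci. The split between higher and lower calls moved with the scaling. The shares of all loci called higher or lower under the alternative scalings are not given here, so this move has no background. With every sample set to the same median level, 11 members were higher and 8 lower, and the medians became -0.02 and 0.23. With every sample set to the same median difference from the locus means, an alternative added after the data were seen, 6 were higher and 11 lower, with medians of -0.15 and 0.10.

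**Figure D2:**
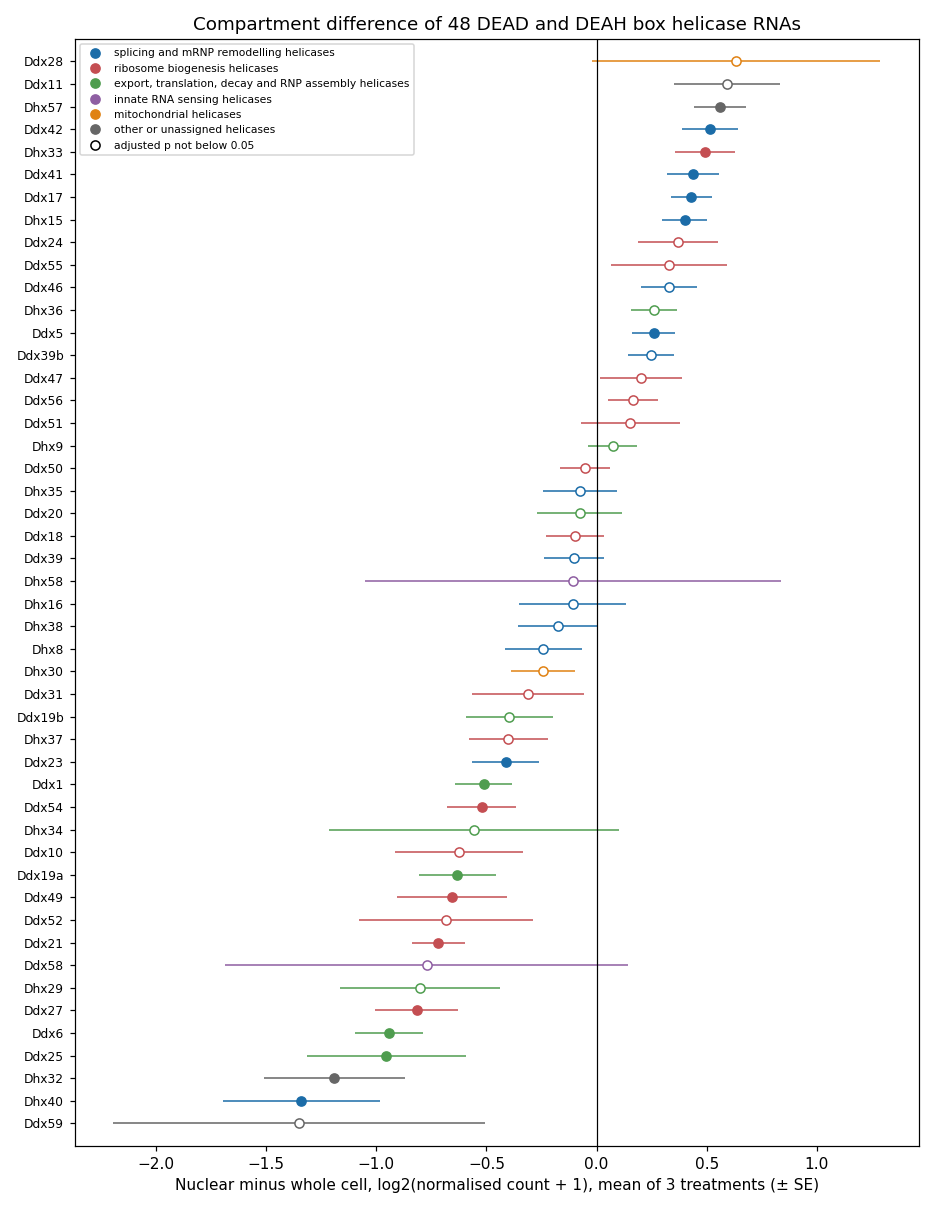
Nuclear minus whole cell log2(normalised count + 1) of 48 helicase RNAs averaged over the 3 treatments, with SE bars, coloured by role and filled where the limma adjusted p was below 0.05. The 18 filled points run from -1.34 (Dhx40) to 0.56 (Dhx57), and the wide bars belong to members with few reads such as Ddx59 and Ddx58.

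Among 14 splicing and messenger RNP remodelling helicases, 5 were higher in nuclear samples, 2 were lower and 7 did not pass the test, with a median of 0.09. Over all loci 31.0% were called, 15.3% higher and 15.8% lower, and these shares are the background of each role that follows. Ddx17 had normalised counts of 4902 to 5576 in nuclear samples (median 5215) and 2964 to 4214 in whole cell samples (median 4016). It is the 1 member whose 9 nuclear samples all lie above the 9 whole cell samples, and 2.91% of all tested loci do so. The log2 difference was 0.43 (SE 0.09, limma adjusted p = 8.80e-04), or 1.35-fold, and in the FPKM table it was 0.19 (adjusted p = 0.116), where the groups overlapped (nuclear 73.1 to 81.8 FPKM, whole cell 61.1 to 76.7). The reads of Kdelr3 on the opposite strand were not separated from Ddx17 by any stated setting.

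Ddx42, which binds the SF3b part of the U2 particle, ranged from 1366 to 1747 in nuclear samples (median 1547) and from 633 to 1393 in whole cell samples (median 1135). The groups overlapped narrowly, and the log2 difference was 0.52 (SE 0.13, limma adjusted p = 0.00303). With FPKM it was 0.15 and the call was lost (adjusted p = 0.507). Dhx15, at chr5:52150203-52190514, had 1777 to 2436 in nuclear samples (median 2003) and 1060 to 1803 in whole cell samples (median 1609), a log2 difference of 0.40 (SE 0.10, limma adjusted p = 0.00440). Its locus also carries the symbol Gm43176. Ddx41, a helicase of the catalytic spliceosome, had 1333 to 2149 (median 1737) against 841 to 1658 (median 1197). The groups overlapped, and its locus joins Fam193b, so the log2 difference of 0.44 (SE 0.12, limma adjusted p = 0.00687) belongs to both genes. With FPKM the call was lost (0.29, adjusted p = 0.130).

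Ddx5 had 4185 to 6208 in nuclear samples (median 4864) and 3931 to 4385 in whole cell samples (median 4152). The whole cell samples sat close together, and only nuclear Scr sample 1 fell within their range. The log2 difference of 0.26 (SE 0.10, limma adjusted p = 0.0442) passed the test in 4 of the 18 fits that left out 1 sample, and not with FPKM (0.22, adjusted p = 0.193). Ddx39b, at 2156 to 3103 against 1799 to 2772, did not pass (log2 difference 0.25, SE 0.10, limma adjusted p = 0.0753) and did so in 3 of 11 other settings (lowest adjusted p = 0.0241) and in 1 of the 18 fits without 1 sample. With FPKM its difference was -0.03 (adjusted p = 0.848).

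The lower calls in this role were Dhx40 and Ddx23. Dhx40, at chr11:86768846-86807746, had 12.7 to 138 in nuclear samples (median 114) and 104 to 486 in whole cell samples (median 230). Nuclear control sample 3 was the lowest and whole cell *miR-92b* sample 3 the highest, and whole cell *miR-92b* sample 2 fell among the nuclear samples. Its log2 difference of -1.34 (SE 0.36, limma adjusted p = 0.00598) was the largest among called members. Ddx23, the helicase of the U5 particle, was named after its values were seen. It had 187 to 506 (median 438) against 424 to 701 (median 535), a log2 difference of -0.41 (SE 0.15, limma adjusted p = 0.0425) that held in 7 of the 18 fits without 1 sample. The spliceosomal DEAH box helicases Dhx8, Dhx16, Dhx35 and Dhx38 had log2 differences between -0.24 and -0.07, and none passed.

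Of 16 ribosome biogenesis helicases, 4 were lower in nuclear samples, 1 was higher and 11 did not pass, with a median of -0.20, a called share close to the background of 31.0%. Ddx21, which acts in the nucleolus on ribosomal RNA transcription and processing, had 746 to 1158 in nuclear samples (median 856) and 1109 to 1776 in whole cell samples (median 1604). The groups met only at nuclear control sample 3 and whole cell Scr sample 3, and the log2 difference was -0.72 (SE 0.12, limma adjusted p = 7.59e-05), or 1.65-fold lower. Ddx27, a factor of large subunit assembly, had 110 to 202 (median 157) against 182 to 367 (median 285), a log2 difference of -0.82 (SE 0.19, limma adjusted p = 0.00190).

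Ddx54, a nucleolar helicase, had 160 to 374 in nuclear samples (median 288) and 268 to 463 in whole cell samples (median 420). The log2 difference was -0.52 (SE 0.16, limma adjusted p = 0.0133), and with FPKM -0.85 (adjusted p = 0.0540). Cfap73 and Gm43579 lie on the strand opposite Ddx54. Ddx49 had 68.0 to 240 (median 121) against 122 to 314 (median 214) with much overlap, and its log2 difference of -0.66 (SE 0.25, limma adjusted p = 0.0475) held in 6 of the 18 fits without 1 sample, and not with FPKM (-0.49, adjusted p = 0.315). Homer3 lies on the strand opposite Ddx49. Dhx33, which acts in ribosomal RNA synthesis, went the other way, with 502 to 773 (median 602) against 329 to 569 (median 435). Its log2 difference was 0.49 (SE 0.14, limma adjusted p = 0.00776), and the call was lost with FPKM (0.36, adjusted p = 0.292). Ddx50, the neighbour and paralog of Ddx21 on chromosome 10, was at -0.05 (SE 0.11, limma adjusted p = 0.761).

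Of 10 tested helicases of export, translation, decay and RNP assembly, 4 were lower in nuclear samples (background 15.8%) and 0 higher (background 15.3%), with a median of -0.53. Without the test, 8 of the 10 had a negative difference, as had 30 of the 48 members and 6756 of the 15579 loci. Ddx6, which represses translation and promotes decapping in P-bodies, had 364 to 787 in nuclear samples (median 399) and 622 to 1183 in whole cell samples (median 885). Nuclear Scr sample 3, at 787, was the 1 nuclear sample within the whole cell range, and the other 8 lay between 364 and 462. The log2 difference was -0.94 (SE 0.16, limma adjusted p = 6.07e-05), or 1.92-fold lower, the smallest adjusted p among the members. The gene lies at chr9:44604892-44640731, with Gm30671 on the opposite strand.

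Ddx1, a component of the tRNA ligase complex, had 458 to 700 in nuclear samples (median 504) and 584 to 1062 in whole cell samples (median 711), a log2 difference of -0.51 (SE 0.13, limma adjusted p = 0.00423). With FPKM the call was lost (-0.39, adjusted p = 0.102). Ddx19a, a helicase of mRNA export at the nuclear pore, had 137 to 279 (median 222) against 222 to 470 (median 332), a log2 difference of -0.63 (SE 0.17, limma adjusted p = 0.00770), and with FPKM -1.05 (adjusted p = 0.0252). For its paralog Ddx19b it was -0.40 (SE 0.20, adjusted p = 0.128). Ddx25, a helicase known from male germ cells, had 30.1 to 79.1 (median 49.8) against 61.2 to 220 (median 88.1). The log2 difference of -0.95 (SE 0.36, limma adjusted p = 0.0479) held in 5 of the 18 fits without 1 sample, while with FPKM the difference was -2.15 (adjusted p = 5.38e-04). Dhx9, at 2206 to 3060 against 1643 to 3278, had a log2 difference of 0.07 (SE 0.11, adjusted p = 0.645), and Dhx36, a G-quadruplex helicase, 0.26 (SE 0.11, adjusted p = 0.0641).

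The remaining roles hold few members. Among the 4 tested members with another or no assigned role, Dhx57 was higher in nuclear samples, with 838 to 1000 (median 975) against 446 to 839 (median 618). Only whole cell Scr sample 3 reached the lowest nuclear sample, and the log2 difference was 0.56 (SE 0.12, limma adjusted p = 8.33e-04). Morn2 and AC132910.1 lie on the strand opposite Dhx57. Dhx32 was lower, with 38.2 to 113 (median 52.0) against 55.8 to 245 (median 143) and a log2 difference of -1.19 (SE 0.32, limma adjusted p = 0.00632), which became -1.82 with FPKM and remained called. Its listed region is shared with 5 other loci, and 3 genes lie on the opposite strand. The mitochondrial helicases Ddx28 and Dhx30 did not pass, at 0.63 (SE 0.65) and -0.24 (SE 0.14).

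**Figure D3:**
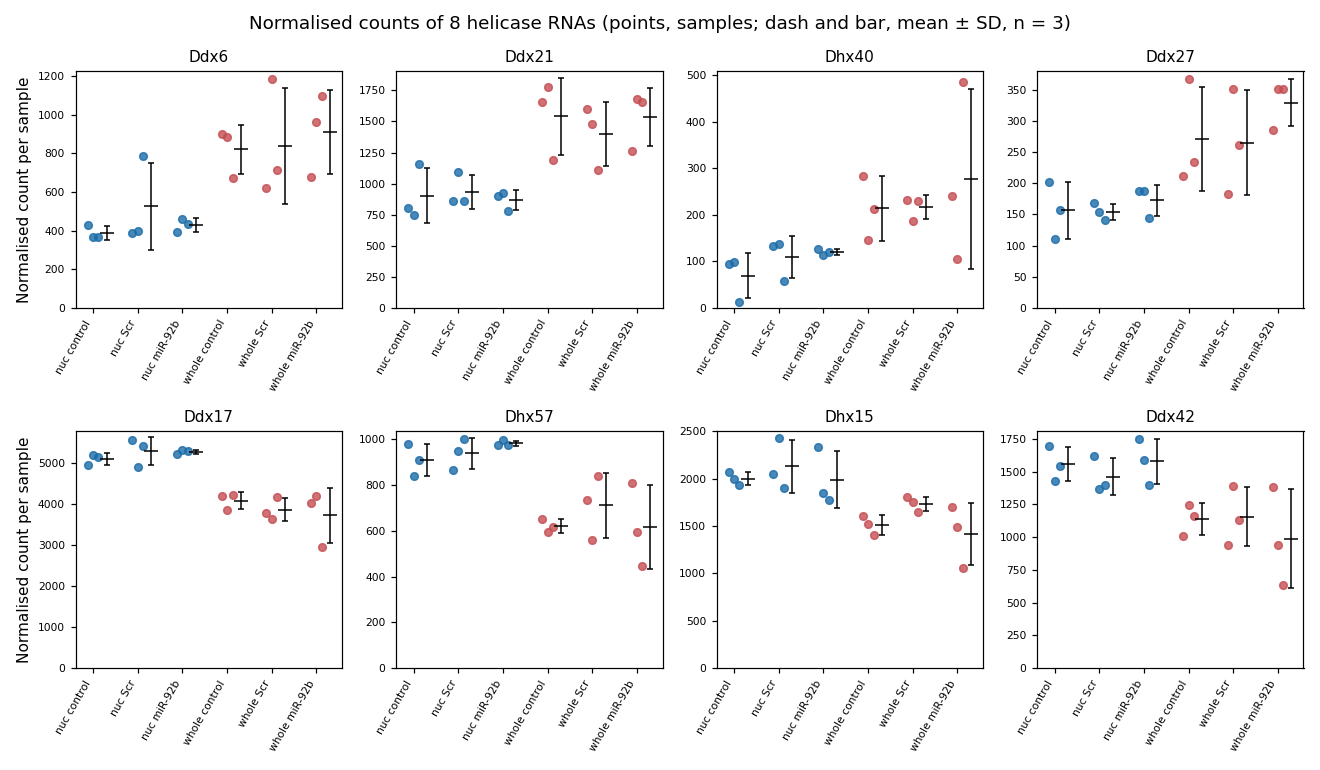
Normalised counts in every sample for 8 helicase RNAs, by compartment and treatment, with the mean and SD (n = 3) beside each group and axes from 0. Ddx6, Ddx21, Dhx40 and Ddx27 (top) are lower in most nuclear (blue) than whole cell (red) samples, Ddx17, Dhx57, Dhx15 and Ddx42 (bottom) are higher, and only Ddx17 has no overlap.

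Across the families, 0 of 48 members had all 9 nuclear samples below the 9 whole cell samples, where 4.40% of all tested loci did. By the codons of motif II, 4 of 24 tested members with DEAD were higher and 8 lower, and 2 of 9 with DEAH were higher and 1 lower, where the backgrounds were 15.3% higher and 15.8% lower. The difference between the motif classes was not tested. Across the 48 members, the log2 difference had a Spearman rho of -0.26 with the span of the gene, 0.04 with coding length and -0.07 with the length of the 3' UTR. Over loci of 1 gene with a coding transcript the same rho were 0.20 and 0.24 (10568 loci) and 0.09 (10494 loci). These are descriptions across genes, which share libraries and are not independent replicates.

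Profiles over the 18 samples, as Pearson's r of log2(normalised count + 1), were most alike for Ddx17 and Dhx57 (0.88), Ddx6 and Dhx32 (0.87) and Ddx23 and Dhx8 (0.86). The most opposed pair was Ddx17 and Ddx21 (-0.84). The points share library and compartment.

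Within 1 treatment, fewer calls were made. In control samples, 4 members were called (8.33%), where 9.85% of all loci were called. All 4 were lower in nuclear samples, and the loci called at large were also mostly lower (1077 lower, 458 higher). The 4 were Dhx40 (log2 difference -2.03, SE 0.62), Ddx6 (-1.08, SE 0.27), Ddx23 (-0.82, SE 0.26) and Ddx21 (-0.78, SE 0.21), with limma adjusted p between 0.0112 and 0.0483. Nuclear control sample 3 lay far below samples 1 and 2 for Dhx40 (12.7 against 95.3 and 99.5) and Ddx23 (187 against 455 and 417). These 2 differences therefore rest in large part on 1 library. The count was 0 without whole cell control sample 1 or 2, 2 without nuclear or whole cell control sample 3, and 8 without whole cell *miR-92b* sample 3. It was 12 with limma fitted to the compared groups alone, 19 with sample weights and 1 with FPKM. In Scr samples, 0 members were called by limma (background 5.17%), 9 had an unadjusted p below 0.05 (18.8%, against 22.1% of all loci), edgeR called 0 and DESeq2 called 2. None of the 4 tested nuclear-retained RNAs was called by limma in Scr samples either, while 7 of the 9 listed mRNAs translated in the cytoplasm were. The limma count of members became 2 without nuclear Scr sample 1 or whole cell *miR-92b* sample 3, and 1 without nuclear Scr sample 3, whole cell Scr sample 1 or whole cell *miR-92b* sample 2. Shares of all loci called under these other settings are not given here, so the moves of the control and Scr counts have no background.

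In *miR-92b* samples, 7 members were called (background 13.3%, with 1038 loci higher and 1033 lower). Ddx11 (log2 difference 1.53, SE 0.42), Ddx42 (0.74, SE 0.22), Dhx57 (0.71, SE 0.20) and Ddx17 (0.52, SE 0.16) were higher in nuclear samples, and Ddx6 (-1.06, SE 0.27), Ddx21 (-0.81, SE 0.21) and Ddx1 (-0.71, SE 0.23) lower, with limma adjusted p between 0.0108 and 0.0382. Whole cell *miR-92b* sample 3 was also the lowest of the 18 for Ddx11, and without this sample 1 member was called. Without nuclear *miR-92b* sample 1, 2 or 3 the count was 2, 3 and 3, and it was 1 with FPKM and 1 with the compared groups alone. These moves have no background either, as the shares of all loci called are not given here. Of the 18 members called over the 3 treatments, 17 had the same sign in each treatment, Ddx23 being the exception with 0.07 in Scr samples, against 4711 of 4831 called loci at large.

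**Figure D4:**
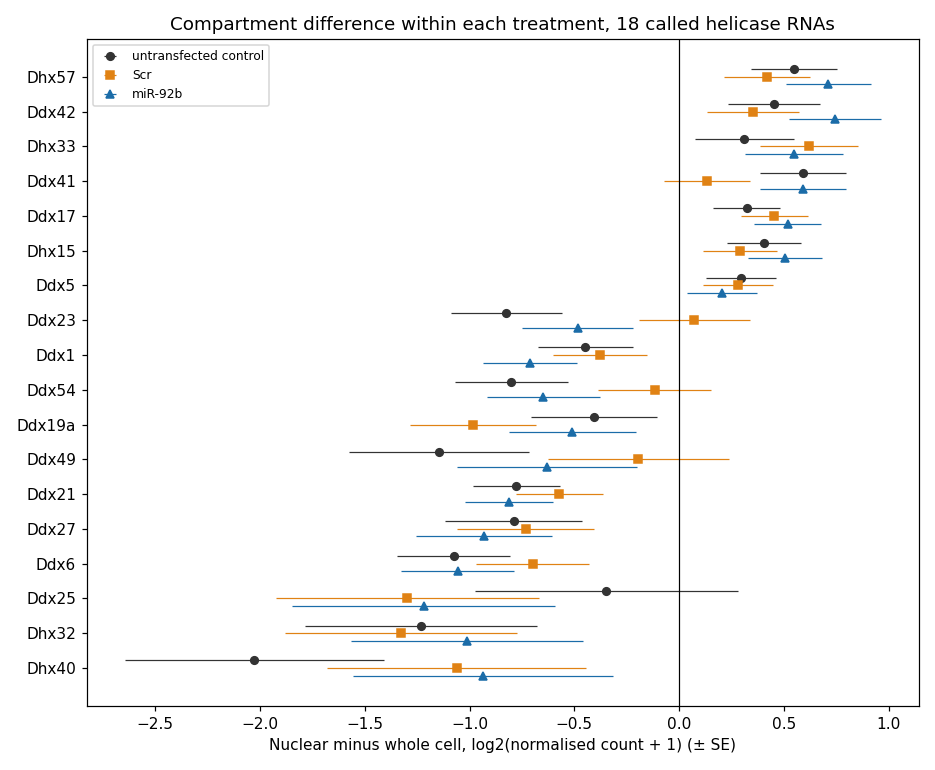
Nuclear minus whole cell log2(normalised count + 1) within control (circles), Scr (squares) and *miR-92b* (triangles) samples for the 18 members called over the 3 treatments, with SE bars. All 7 members higher in nuclear samples are to the right of 0 in each treatment, and of the 11 lower members only Ddx23 crosses 0, in Scr samples.

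The second question was whether the amount of helicase RNA collected with *miR-92b* differed from that collected with Scr. Target recognition by a microRNA rests mainly on its seed, bases 2 to 8, shown in capitals in the mature -3p strand of *miR-92b* from RefSeq (GRCm38.p6, chr3:89227126-89227147, minus strand). The study uses the short name for this strand.
miR-92b-3p: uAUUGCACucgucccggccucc
The match of bases 2 to 8, GTGCAAT, was searched on the sense strand of the longest annotated 3' UTR. It was in 0 of the 48 tested members and in 8.04% of 11556 tested loci with a 3' UTR. The median length of the 3' UTR was 737 bases in the 48 members and 1228 over 10494 loci of 1 gene. The shares with a match were not adjusted for this length, so they are not like for like. Counting also the match of bases 2 to 7 followed by A (TGCAATA), which overlaps the first, 1 of 48 members and 14.8% of loci had a match. The 1 member was Ddx46, a helicase of early spliceosome assembly, whose match is shown in capitals.
Ddx46: ttgttttttaaTGCAATAtcaatatttcc
It lies at chr13:55681193-55681199 (plus strand, GRCm38) near the end of the 3' UTR. The nuclear normalised counts of Ddx46 were 787, 919 and 865 for *miR-92b* against 734, 709 and 1103 for Scr, which overlap (log2 difference 0.04, SE 0.22). The whole cell counts were 798, 795 and 519 for *miR-92b* against 771, 727 and 554 for Scr (0.03, SE 0.22).

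In nuclear samples, limma called 0 of 48 members between *miR-92b* and Scr (background 0%), 2 (Ddx31 and Ddx58) had an unadjusted p below 0.05 (4.17%, against 4.41% of all loci), and edgeR and DESeq2 also called 0. In whole cell samples it called 0 members (background 0.00642%), 3 (Ddx11, Ddx50 and Ddx58) had an unadjusted p below 0.05 (6.25%, against 9.72%), and edgeR and DESeq2 called 0. Ddx58 is in both counts, yet it passed the filter on the mean only through its *miR-92b* samples, so its p-values decide nothing here. The members' log2 differences had medians of 0.07 (nuclear) and 0.09 (whole cell), and their median SE was 0.31. The difference between the nuclear and whole cell effects was called for 0 members (background 0.00642%), with 1 at an unadjusted p below 0.05 (2.08%, against 7.21%), and edgeR and DESeq2 called 0.

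That member was Ddx11, at chr17:66123520-66152174, which was named after its values were seen. Its nuclear normalised counts were 398, 267 and 221 for *miR-92b*, 320, 112 and 124 for Scr, and 371, 285 and 430 for control. Its whole cell counts were 122, 153 and 51.0 for *miR-92b*, 224, 343 and 256 for Scr, and 149, 174 and 235 for control. The 3 whole cell *miR-92b* samples lay below the 3 Scr samples without overlap, while the nuclear groups overlapped. The log2 difference of *miR-92b* and Scr was -1.45 in whole cell samples (SE 0.42, limma adjusted p = 0.311) and 0.80 in nuclear samples (SE 0.42, unadjusted p = 0.0678). The difference between these effects was 2.25 (SE 0.59), with an unadjusted limma p of 8.79e-04 and an adjusted p of 0.683, and over the alternatives the adjusted p ranged from 0.0782 to 0.999.

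The innate RNA sensors had few reads, from 0 to 68 in a sample. Ddx58 (RIG-I), which binds duplex RNA with a 5' triphosphate, reached nuclear normalised counts of 13.7, 13.1 and 33.4 for *miR-92b* against 4.57, 0 and 0 for Scr. The whole cell counts were 13.5, 81.4 and 43.3 for *miR-92b* against 0, 43.5 and 0 for Scr. The control samples held 8.67, 0 and 4.75 (nuclear) and 17.6, 5.19 and 0 (whole cell). All *miR-92b* samples had reads, from 10 to 68, and 4 of the 6 Scr samples had none. The unadjusted limma p of 0.0403 (nuclear) and 0.0423 (whole cell) did not pass the adjustment. Ddx58 reached the required mean normalised count of 10 only through its *miR-92b* samples (group means 20.1 nuclear and 46.1 whole cell). The other group means were 1.52 and 14.5 for Scr and 4.47 and 7.61 for control. These p-values were thus conditioned on the values they compare, and no conclusion is drawn from them. Dhx58 (LGP2), a regulator of Ddx58, had 15.0, 21.6 and 7.72 in nuclear *miR-92b* against 18.3, 20.7 and 0 in nuclear Scr samples. In whole cell samples it had 3.60, 44.3 and 0 against 0, 11.1 and 0. Control samples held 14.4, 0 and 0 (nuclear) and 12.9, 34.6 and 30.4 (whole cell), and the whole cell control samples all lay above the whole cell Scr samples. The unadjusted limma p of 0.0462 for Scr against control did not pass the adjustment. The antisense gene of Dhx58, Dhx58os, lies on the opposite strand.

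**Figure D5:**
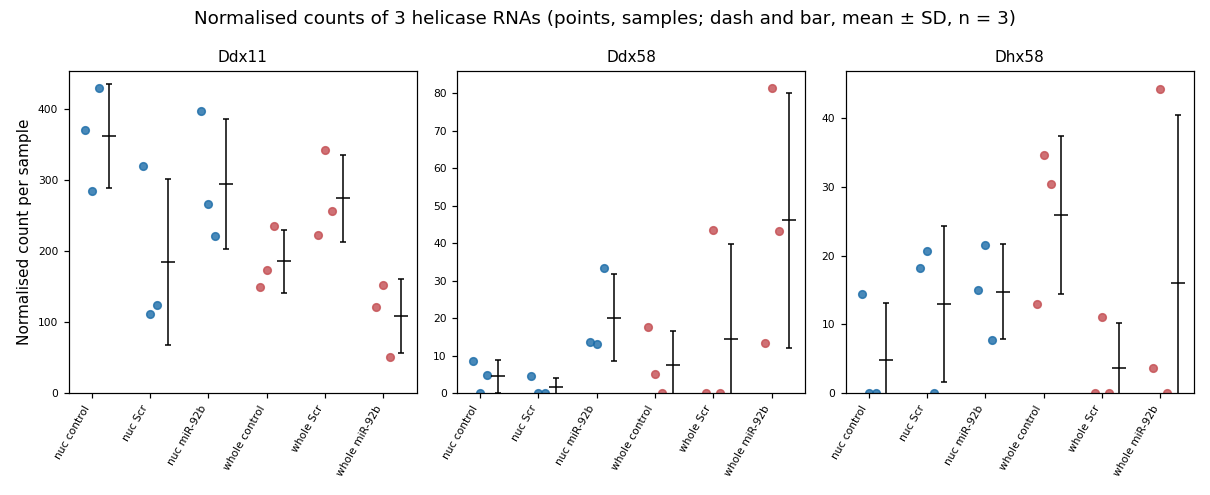
Normalised counts in every sample for Ddx11, Ddx58 and Dhx58 by compartment and treatment, with the mean and SD (n = 3) and axes from 0. Ddx11 is lower in the 3 whole cell *miR-92b* samples than in the 3 whole cell Scr samples, and Ddx58 and Dhx58 lie between 0 and 81.4 in all groups.

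Against control, which shares samples with the comparisons above, 0 members were called for *miR-92b* in nuclear samples (background 0%) or whole cell samples (background 0.00642%), or for Scr in nuclear or whole cell samples (background 0% in both). Of these, 0, 1, 3 and 1 members had an unadjusted p below 0.05, where 0.321%, 4.69%, 5.88% and 5.09% of all loci had, and edgeR and DESeq2 called 0 in each. Ddx11 was among them in both compartments, at -0.89 (SE 0.42) for *miR-92b* in whole cell samples and -1.12 (SE 0.42) for Scr in nuclear samples, where the others were Ddx18 and Ddx23, and Dhx58 was the 1 for Scr in whole cell samples.

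Other genes of helicase function were taken from lists drawn up by gene function. Of 20 tested RNA helicases without a Ddx or Dhx name, 1 was called between nuclear and whole cell samples over the 3 treatments, where 31.0% of all loci were called. It was Eif4a1, the helicase of translation initiation, lower in nuclear samples (log2 difference -0.87, limma adjusted p = 8.53e-06), while its paralog Eif4a2 was at 0.08 (adjusted p = 0.589). Of 28 cofactors with G-patch or MIF4G domains, which bind and regulate DEAH and DEAD box helicases, 6 were higher (background 15.3%) and 6 lower (background 15.8%). The largest of these differences were lower in nuclear samples for Gpatch3, whose locus joins Gpn2 (-1.81, limma adjusted p = 0.0255), and for the MIF4G proteins Paip1 (-1.45, adjusted p = 1.65e-06) and Eif4g2 (-1.10, adjusted p = 1.29e-06), and higher for Pinx1 (0.78, adjusted p = 0.0263). For Gpatch3 the mean normalised counts were 76.0 ± 45.7 (nuclear) and 138 ± 36.9 (whole cell, SD, n = 9 each), and among nuclear samples Scr was on average below *miR-92b* by a log2 difference of 3.93 (SE 1.04, not called). Gle1, the nuclear pore activator of Ddx19, was also lower (-0.67, adjusted p = 0.0106). None of the 20 or of the 28 was called between *miR-92b* and Scr in either compartment.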

How the data were processed

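The authors' pipeline ran Trimmomatic (0.30), then TopHat2 against GRCm38, then Cufflinks and Cuffdiff. The sources used here do not give the annotation or the versions of the last 3 tools. The deposited normalised counts are a signal, fragments per locus divided by 1 size factor per sample, from which reads were recovered (99.9984% of 635205 values above 0 came out whole within 0.02 reads plus the rounding of the printed value). The deposited FPKM values are relative to transcript length and mapped fragments. The authors' own comparison tables hold fold changes and p-values and were not used.

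The 115957 loci without a symbol were left out, and a mean normalised count of at least 10 was required. limma (3.58.1) with a variance trend on log2(normalised count + 1) was fitted to 15579 loci, all 6 groups in 1 model. Tests were two-sided at 0.05 after Benjamini-Hochberg adjustment over all of them. The pseudocount of 1 understates fold changes of low genes. Groups of 3 cannot reach an exact permutation p below 0.1. Alternatives were pseudocounts of 0.5 and 8, means of at least 1 and 50, 2 median scalings, FPKM, the compared groups alone, sample weights, the sample number as a block, each sample left out, and edgeR (4.0.16) and DESeq2 (1.42.0) on the recovered reads. On simulated data for the compartment comparison over 15579 loci, limma recovered 39 of 100 loci changed by a log2 size of 1 and 60 of 100 changed by 2, with 4 false calls, and for nuclear *miR-92b* against Scr 13 and 33 of 100, with 3 false calls. Only these loci were changed, while 31.0% of loci were called in the real compartment comparison. They were drawn from all tested loci, whose median SE there was 0.338, against 0.178 for members. These recovered shares therefore do not give the power for the members.

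Members and lists were chosen with earlier results of these data known. Named with values were up to 10 called members per direction in the compartment comparison, 11 members fixed by role, and the highest and lowest tested member by FPKM. Other names were chosen after their values were seen. Of the members, 6 share a locus with another symbol and 24 a listed region with another locus. The kit marks strand, but whether the counting used it is not given. Motif II was read from the longest GENCODE (M21) coding sequence, as 4 codons after 3 hydrophobic ones. The last condition was added after a first search gave another place in Dhx15. Counting intervals and floors cover counting error only. One neuroblastoma marker of the list is not reported here.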

Additional observations from a re-analysis of the deposited data

How the results depend on the processing

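The count of 18 members called between nuclear and whole cell samples over the 3 treatments lay between 14 and 21 when samples were left out singly, and 14 of the 18 were called in all of those fits. It fell to 10 with the FPKM table, of which 9 were among the 18. In all fits together, 8 members (Ddx6, Ddx21, Ddx27, Ddx19a, Dhx15, Dhx32, Dhx40 and Dhx57) were called throughout. In control samples the count of 4 became 12 with the compared groups alone, 19 with sample weights, 1 with FPKM and 2 with edgeR, and ranged from 0 to 8 with 1 sample left out. In Scr samples the count of 0 became 1 with a mean of at least 50, 1 with sample weights, 2 with FPKM and 2 with DESeq2, and ranged from 0 to 2. In *miR-92b* samples the count of 7 became 1 with FPKM and 1 with the compared groups alone, and ranged from 1 to 10. The shares of all loci called under these settings are not given here, so the moves of these counts are not set against a background. Their cause was not tested. All 7 comparisons of mimics and control kept 0 called members in every fit. With the sample number as a replicate block the counts were 18, 5, 0 and 9. Same-numbered samples had correlations of their deviations between -0.044 and 0.109, and 9 of 18 samples matched best with their own number, so the numbers were not taken as pairs. Ddx11 in *miR-92b* samples lost its call with FPKM (limma adjusted p = 0.149), with the compared groups alone, without nuclear *miR-92b* sample 1 and without whole cell *miR-92b* sample 3 (0.117). No called log2 difference of a named member changed sign. A count of 0 reads allows a normalised count of up to 0.786 in the deepest library and 4.75 in the shallowest.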
